A study of Homo sapiens with 4 samples.

Results

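The snoRNA host genes described here were the genes whose name in the deposited tables was SNHG followed by a digit, together with GAS5 and ZFAS1, whatever their biotype. The rule found 26 of 58302 genes. To examine how melatonin acts on hepatocellular carcinoma cells, polyadenylated RNA was sequenced from HepG2 cells, a human liver tumour line, after 24 h or 48 h with 1 mM melatonin or with its solvent DMSO alone. Each of the 4 conditions, a pairing of solvent or melatonin with a time, had 1 library. No difference could therefore be set against a spread between cultures, and no single comparison has a p-value. Expression was deposited as FPKM, the number of fragments normalised to gene length and to library size. Levels of different genes can be set beside each other only as far as the length of the gene model is that of the RNA.

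Small nucleolar RNAs (snoRNAs) are short stable RNAs that guide the chemical modification of ribosomal RNA. Box C/D snoRNAs guide 2′-O-methylation, box H/ACA snoRNAs guide pseudouridylation, and the related scaRNAs guide modification of spliceosomal RNAs in Cajal bodies. Most human snoRNAs are not transcribed alone but are cut out of the introns of a host gene. Some hosts encode ribosomal or nucleolar proteins. Others, the SNHG genes among them, make a spliced RNA with little coding capacity, and several of these RNAs begin with a run of pyrimidines, as ribosomal protein mRNAs do, and are removed by nonsense-mediated decay when they are translated. GAS5 was first found as a transcript that accumulates in growth-arrested cells.

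By position, 24 of the 26 genes held at least 1 RefSeq snoRNA or scaRNA within their span, 139 in all. Most of the snoRNAs were of the C/D kind in 10 genes and of the H/ACA kind in 9, while 4 genes held 1 scaRNA each. SNHG25 held 1 of each snoRNA kind, and SNHG27 and SNHG28 held none. SNHG14, a long transcript of the imprinted Prader-Willi region, alone held 83 C/D snoRNAs. GAS5 held 10 C/D snoRNAs and 1 H/ACA snoRNA.

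The sequences of 7 hosted RNAs are given because their hosts are among those that carry the differences described below. They were read from hg38 at RefSeq positions, on the strand of the host, 5′ to 3′. In the C/D snoRNAs the capitals mark the C box TGATGA and the D box CTGA, and in the H/ACA RNAs and the scaRNA they mark the ACA that lay 3 bases before the end.
SNORD44 in GAS5 (chr1:173865968-173866028, minus strand): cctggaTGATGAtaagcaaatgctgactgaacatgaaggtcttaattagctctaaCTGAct
SNORD50A in SNHG5 (chr6:85677294-85677368, minus strand): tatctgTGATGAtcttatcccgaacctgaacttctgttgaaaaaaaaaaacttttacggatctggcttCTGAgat
SNORD60 in SNHG19 (chr16:2155023-2155105, minus strand): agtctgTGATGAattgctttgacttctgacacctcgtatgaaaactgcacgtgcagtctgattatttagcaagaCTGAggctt
SNORD104 in SNHG25 (chr17:64146078-64146157, plus strand): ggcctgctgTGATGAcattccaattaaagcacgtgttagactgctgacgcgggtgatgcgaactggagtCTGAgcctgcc
SNORA17A in SNHG7 (chr9:136726747-136726879, minus strand): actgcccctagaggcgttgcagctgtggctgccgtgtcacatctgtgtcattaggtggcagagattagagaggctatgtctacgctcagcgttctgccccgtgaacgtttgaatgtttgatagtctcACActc
SNORA73A in SNHG3 (chr1:28507365-28507571, plus strand): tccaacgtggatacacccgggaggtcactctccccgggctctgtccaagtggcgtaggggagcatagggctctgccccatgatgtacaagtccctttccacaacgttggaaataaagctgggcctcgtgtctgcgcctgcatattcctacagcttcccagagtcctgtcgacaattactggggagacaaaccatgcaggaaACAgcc
SCARNA16 in SNHG20 (chr17:77089307-77089493, plus strand): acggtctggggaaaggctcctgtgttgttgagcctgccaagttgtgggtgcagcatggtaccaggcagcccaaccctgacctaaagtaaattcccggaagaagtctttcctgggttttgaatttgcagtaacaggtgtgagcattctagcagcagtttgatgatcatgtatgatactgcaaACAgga

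The libraries held 21616676 to 23086025 reads on genes, recovered as whole numbers from FPKM and gene length. Mitochondrial genes took 19.96% and 16.6% of these reads at 24 h (DMSO and melatonin) and 9.77% and 11.9% at 48 h. All 9 hepatocyte markers looked at were present at 34.9 to 3343 FPKM. Of 8 markers of blood, endothelial, stromal and basal epithelial cells, 7 stayed under 1 FPKM in all libraries, with COL1A2 and KRT5 at 0 reads, whereas LYZ reached 1069 FPKM.

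Of the 26 genes, 21 reached an FPKM of 1 in at least 1 library and 17 did so in all 4. Their levels ranged over more than an order of magnitude, with SNHG19, SNHG8, SNHG5, SNHG6, SNHG16, GAS5 and ZFAS1 highest by mean FPKM and SNHG22, SNHG21 and SNHG25 lowest. This order depends on the length of the gene models, which was 342 bp for SNHG19, 3631 bp for GAS5 and 43324 bp for SNHG14. Over all libraries these genes had 997, 7106 and 12991 reads. Both 48 h libraries held more host gene RNA than the 24 h libraries. The summed FPKM of the 26 genes was 189.4 (DMSO) and 203.7 (melatonin) at 24 h, and 401.6 and 339.0 in the same order at 48 h. In bulk RNA, fewer cells of a kind and less RNA per cell cannot be told apart, and this holds for every level given here. The 5 genes that stayed under 1 FPKM everywhere were SNHG9, SNHG15, SNHG18, SNHG27 and SNHG28, the last 3 of them with 0 reads in every library, which allows up to 3 reads in each. SNHG9 had 0, 0, 5 and 3 reads. All series of values here follow this order, the DMSO and then the melatonin library of 24 h and then the same pair of 48 h. SNHG15 had 1, 0, 2 and 1 reads.

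**Figure D1:**
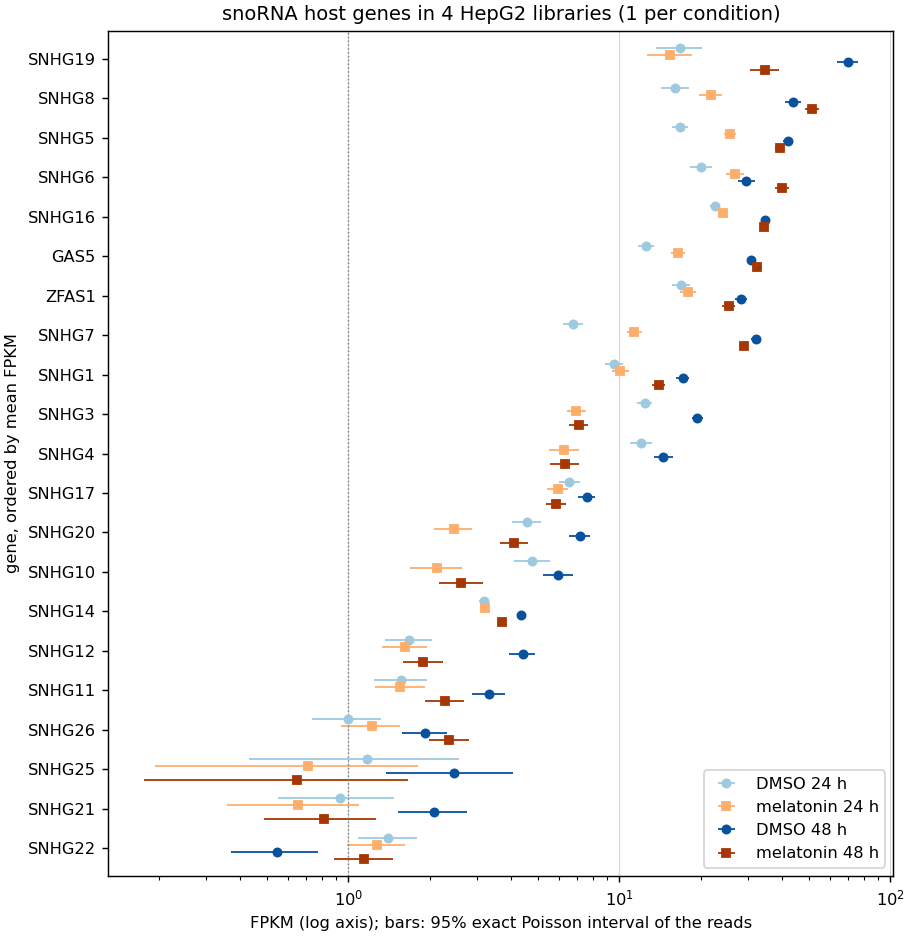
FPKM on a log axis of the 21 snoRNA host genes that reached 1 FPKM, with circles for DMSO, squares for melatonin, pale colours for 24 h and dark colours for 48 h. Bars are 95% intervals (exact Poisson) from the number of reads, the dotted line is 1 FPKM, and for most genes the dark symbols lie to the right of the pale ones, SNHG22 with DMSO being an exception.

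The first comparison was between 48 h and 24 h in DMSO, the solvent alone. Host genes were mostly higher at 48 h. Differences are given as the log2 fold change of FPKM + 1 for genes that reached 1 FPKM in any of the libraries compared, and as the ratio of reads per library size with its 95% exact binomial interval, which covers counting error only. Of 21 genes tested, 20 lay above 0 (50.3% of all genes did), and the median log2 fold change was 0.67 beside 0.00 (0.0041) for all 13854 genes tested. At the 2-fold threshold 6 were higher (background 3.5%) and none was lower (background 4.24%). At the 1.5-fold threshold 13 were higher (background 11.2%) and 1 was lower (background 12.6%).

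SNHG7, a host of H/ACA snoRNAs of the SNORA17 family, had 6.78, 11.4, 31.9 and 28.9 FPKM. Its lowest library was DMSO 24 h and its highest DMSO 48 h, with melatonin between them at both times. The read ratio of DMSO 48 h to DMSO 24 h was 4.70 (4.29 to 5.16; log2 fold change 2.08). SNHG19, the host of SNORD60, had 16.7, 15.4, 69.7 and 34.5 FPKM, and its 48 h to 24 h read ratio with DMSO was 4.17 (3.38 to 5.19; log2 fold change 2.00). It was the most abundant of the host genes in DMSO 48 h, from 523 reads on a gene model of 342 bp.

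SNHG8 (host of SNORA24) had 16.1, 21.7, 43.8 and 51.6 FPKM, with both 48 h libraries above both 24 h libraries. The ratio with DMSO was 2.72 (2.37 to 3.13; log2 fold change 1.39). SNHG5, which carries the SNORD50 pair, had 16.7, 25.6, 41.9 and 39.2 FPKM, and GAS5 had 12.6, 16.5, 30.7 and 32.3. In both genes the order was the same, with DMSO 24 h lowest, melatonin 24 h next and the 48 h libraries close together on top. The read ratios of DMSO 48 h to 24 h were 2.51 for SNHG5 (2.32 to 2.71; log2 fold change 1.28) and 2.44 for GAS5 (2.26 to 2.65; log2 fold change 1.23). SNHG12, mainly a host of H/ACA snoRNAs, was a low gene with 1.68, 1.62, 4.40 and 1.89 FPKM, so that DMSO 48 h stood alone above the other libraries (ratio 2.62, 2.098 to 3.30; log2 fold change 1.01).

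The 7 further genes past 1.5-fold in DMSO were SNHG1, SNHG3, SNHG11, SNHG16, SNHG21, SNHG25 and ZFAS1. SNHG1, host of the SNORD22 and SNORD25 to SNORD31 series, had 9.57, 10.1, 17.2 and 13.98 FPKM. ZFAS1, host of the SNORD12 group, had 16.9, 18.0, 28.2 and 25.4 FPKM, and SNHG16, host of the SNORD1 group, had 22.6, 24.2, 34.5 and 34.3. In these 3 genes each 48 h library exceeded each 24 h library, and their log2 fold changes with DMSO were 0.78, 0.71 and 0.59. SNHG21 and SNHG25 rested on 18 and 48, and 6 and 15, reads in the DMSO libraries, and the ratio interval of SNHG25 included 1 (0.767 to 6.58). In DMSO SNHG21 passed the FPKM filter through its 48 h library alone.

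SNHG22, which holds SCARNA17, was the one host lower at 48 h with DMSO. It had 1.41, 1.27, 0.545 and 1.15 FPKM from 67, 67, 31 and 66 reads (ratio 0.387, 0.245 to 0.601; log2 fold change −0.64). Only the DMSO 48 h library stood apart, and in DMSO SNHG22 passed the FPKM filter through the 24 h library alone. The 7 genes within 1.5-fold in DMSO (SNHG4, SNHG6, SNHG10, SNHG14, SNHG17, SNHG20 and SNHG26) lay between 0.18 for SNHG17 and 0.55 for SNHG26. Their read ratios, to which no 1 is added, ran from 1.16 for SNHG17 to 1.94 for SNHG26 (1.37 to 2.78). That of SNHG20 was 1.57 (1.35 to 1.83), so these low genes count as within 1.5-fold because 1 was added to FPKM.

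With melatonin, 48 h against 24 h, which shares no library with the DMSO comparison, gave 17 of 19 genes above 0 (45.1% of all genes) and a median log2 fold change of 0.47 beside −0.04 for all genes. The 2-fold threshold was passed upward by 3 genes (background 2.45%) and the 1.5-fold threshold by 6 (background 6.76%), and none was lower at either (background 1.71% and 6.05%). SNHG7, SNHG8 and SNHG19 were the 3 genes past 2-fold, at 1.27, 1.21 and 1.11, and they were past it in DMSO too (3 of 19 genes tested in both, background 0.683%). GAS5 and SNHG5 joined them at 1.5-fold, with 0.93 and 0.59 in melatonin, making 5 of 19 higher in both (background 2.83%). SNHG26 (0.60) was the other gene past 1.5-fold in melatonin. SNHG12, SNHG3, SNHG4 and SNHG17 had log2 fold changes of 0.14, 0.02, 0.00 (0.0037) and −0.01 there, each with a ratio interval that included 1.

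**Figure D2:**
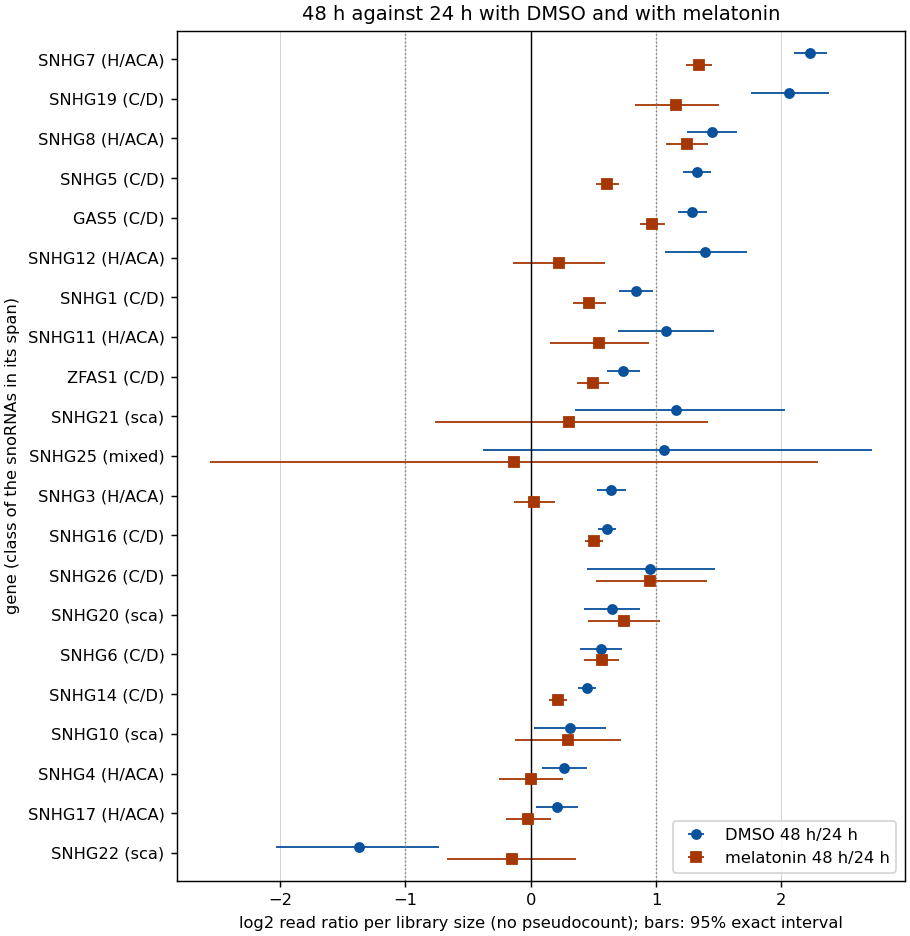
Log2 ratio of reads per library size, without a pseudocount, of 48 h to 24 h for 21 snoRNA host genes, with blue circles for DMSO, brown squares for melatonin and 95% exact intervals of counting error as bars. Dotted lines mark 2-fold, and SNHG7, SNHG19 and SNHG8 lie at the top, with both symbols to the right of the 2-fold line.

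The fraction of reads on mitochondrial genes moved with time as well (above), and scaling changed the size of the time difference. With library sizes set without mitochondrial reads, the medians were 0.68 with DMSO and 0.53 with melatonin, and the 2-fold counts were 6 and 3 as before. With the sum of reads on genes as library size, host gene medians were 0.74 with DMSO and 0.60 with melatonin. Those of all genes were then 0.14 and 0.08. Rescaled to TPM, all genes moved up (medians 0.46 and 0.23), host gene medians were 1.19 and 0.72, and 17 of 22 and 5 of 21 host genes were 2-fold higher (background on that scale 16.4% and 8.58%). The host gene median stood above that of all genes by 0.57 to 0.83 with DMSO and by 0.26 to 0.63 with melatonin under the settings tried.

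The comparison that the study was made for was melatonin against DMSO. At 24 h the host genes were split, with 10 of 20 tested above 0 (53.5% of all genes) and a median of 0.00 (0.0006) beside 0.02 for all genes. None passed 2-fold (background 1.42% higher and 2.93% lower). At 1.5-fold 2 were higher (background 4.02%) and 4 were lower (background 7.53%). Of the 1254 other non-coding genes tested, 63 were at least 1.5-fold higher and 246 at least 1.5-fold lower, so a large lower share was not particular to the hosts. SNHG7 and SNHG5 were the higher pair, with read ratios of 1.68 (1.51 to 1.87; log2 fold change 0.67) and 1.53 (1.41 to 1.67; log2 fold change 0.59). SNHG8, SNHG6 and GAS5 came next at 0.41, 0.41 and 0.37, within 1.5-fold but with intervals above 1.

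At 48 h the host genes lay mostly on the lower side with melatonin, with 5 of 21 above 0 (47.5% of all genes) and a median of −0.28 beside −0.02 for all genes. The 2-fold threshold was passed downward by 3 genes (background 3.32%) and the 1.5-fold threshold by 8 (background 10%), while none passed either upward (background 2.39% and 8.62%). At 48 h SNHG21 and SNHG25 reached 1 FPKM in the DMSO library alone (2.08 and 2.46, against 0.813 and 0.648 with melatonin). Both are among the 8 and SNHG25 is among the 3, so the filter favoured a lower call for them. SNHG22, which was not called, reached 1 FPKM with melatonin alone (1.15 against 0.545). Of the 1359 other non-coding genes tested, 92 were 2-fold and 263 at least 1.5-fold lower, and 30 and 123 were higher. For 15 of 21 genes the counting interval of the read ratio lay below 1 (33.1% of all genes), and for 3 it lay above 1 (29.1%).

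SNHG3 was the host gene with the lowest melatonin to DMSO ratio at 48 h among those with over 50 reads. It carries the SNORA73 pair, whose sequence is shown above for SNORA73A, and had 12.4, 6.96, 19.4 and 7.09 FPKM from 934, 577, 1742 and 644 reads. The melatonin libraries were alike and both lay below both DMSO libraries. The read ratio was 0.559 at 24 h (0.503 to 0.621; log2 fold change −0.76) and 0.365 at 48 h (0.333 to 0.400; log2 fold change −1.34). SNHG4, also a host of H/ACA snoRNAs, had 12.1, 6.27, 14.6 and 6.29 FPKM, again with both melatonin libraries below both DMSO libraries. Its read ratios were 0.519 at 24 h (0.442 to 0.609; log2 fold change −0.85) and 0.432 at 48 h (0.373 to 0.499; log2 fold change −1.09).

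SNHG10 and SNHG20, each with a scaRNA in its span (SCARNA13 and SCARNA16), showed the same order of treatments within each time. SNHG10 had 4.79, 2.13, 5.95 and 2.62 FPKM, with read ratios of 0.445 at 24 h (0.338 to 0.581) and 0.439 at 48 h (0.349 to 0.551). SNHG20 had 4.56, 2.45, 7.15 and 4.10 FPKM, with read ratios of 0.537 at 24 h (0.438 to 0.658) and 0.574 at 48 h (0.494 to 0.665). In each of these genes both melatonin libraries lay below both DMSO libraries. SNHG3, SNHG4, SNHG10 and SNHG20 were the 4 of 20 host genes at least 1.5-fold lower at both times (background 2.79%), and no host gene was at least 1.5-fold higher at both (background 1.39%).

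The other 4 genes past 1.5-fold at 48 h were lower with melatonin at that time against a DMSO 48 h library in which they were highest. SNHG19 (values above) had a read ratio of 0.495 (0.425 to 0.575; log2 fold change −0.99), SNHG12 one of 0.430 (0.351 to 0.525; log2 fold change −0.90) and SNHG21, the host of SCARNA15, one of 0.391 (0.217 to 0.678; log2 fold change −0.76). At 24 h their intervals included 1. SNHG21 had 0.931, 0.655, 2.08 and 0.813 FPKM. SNHG25 had 1.18, 0.709, 2.46 and 0.648 FPKM from 6, 4, 15 and 4 reads, and although it passed 2-fold at 48 h (log2 fold change −1.07), its ratio of 0.263 had an interval from 0.0636 to 0.827.

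GAS5 itself differed little between the treatments at 48 h, with a read ratio of 1.05 (0.995 to 1.11), after 1.31 (1.20 to 1.43) at 24 h. SNHG6, host of SNORD87, had 20.01, 26.8, 29.5 and 39.8 FPKM. It was higher with melatonin at both times by nearly the same factor, 1.34 (1.19 to 1.51) and 1.35 (1.23 to 1.48). SNHG22 was above 1 at 48 h (2.103, 1.35 to 3.33), against the DMSO 48 h library in which it was low.

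Among the remaining genes SNHG11 had 1.57, 1.56, 3.31 and 2.27 FPKM, and SNHG26, which holds SNORD93, had 0.995, 1.22, 1.93 and 2.37. SNHG14 had 3.17, 3.19, 4.33 and 3.70 FPKM, and SNHG17, host of the SNORA71 family, had 6.56, 5.92, 7.58 and 5.85. Each of the 4 stayed within 1.5-fold between melatonin and DMSO at both times. The 2 treatment comparisons share no library with each other, but each shares its libraries with the time comparisons, so a value of DMSO 48 h that is high enters the one as higher and the other as lower.

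**Figure D3:**
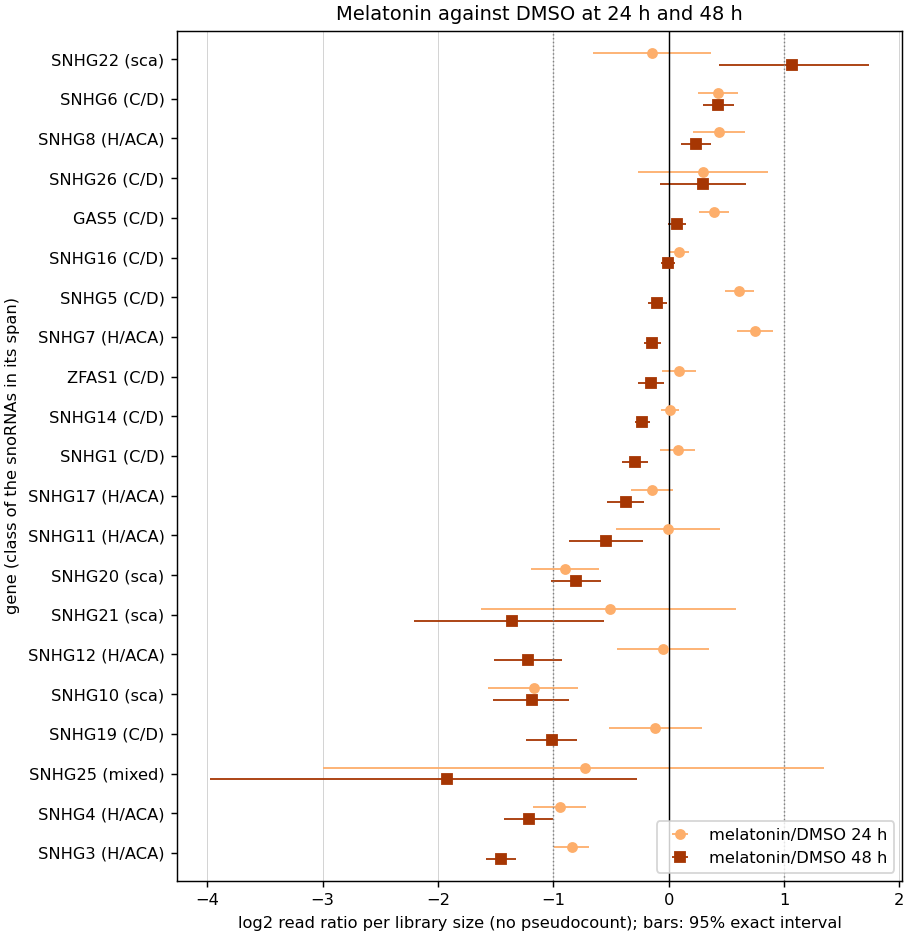
Log2 ratio of reads per library size, without a pseudocount, of melatonin to DMSO for 21 snoRNA host genes at 24 h (pale circles) and 48 h (dark squares), with 95% exact intervals of counting error and the class of the hosted snoRNAs in brackets. SNHG3, SNHG4, SNHG10 and SNHG20 lie left of 0 at both times, SNHG5 and SNHG7 lie right of 0 at 24 h and just left of it at 48 h, and dotted lines mark 2-fold.

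A fit with treatment and time as additive terms over the 4 libraries, run with limma, left 1 residual degree of freedom. Its spread combines the part of each gene that treatment and time do not add up to with a trend over all genes. The trend weighs more, with 4.42 prior degrees of freedom against 1. Neither is the spread between cultures of a condition. After Benjamini-Hochberg adjustment no gene of 14612 was called for either term (background 0%), the hosts included. At an unadjusted p under 0.05, 5 of 21 hosts were lower with melatonin (background 8.82%) and 1 was higher (background 8.25%). For time 12 were higher (background 10.1%) and none was lower (background 13.7%). SNHG4, SNHG10, SNHG3 and SNHG20 had the lowest limma adjusted p for melatonin, 0.111, 0.111, 0.121 and 0.126, at log2 fold changes of −0.97 ± 0.13, −0.92 ± 0.13, −1.05 ± 0.18 and −0.68 ± 0.12 (± SE). For time SNHG8, SNHG7 and GAS5 had a limma adjusted p of 0.0625 each, at 1.30 ± 0.13, 1.67 ± 0.21 and 1.08 ± 0.14.

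Grouped by the RNAs they carry, a grouping made after the values were seen, the hosts of C/D snoRNAs had median log2 fold changes with melatonin of 0.09 at 24 h and −0.10 at 48 h (9 genes tested). For hosts of H/ACA snoRNAs the medians were −0.03 and −0.40 (7 genes), and for the scaRNA hosts −0.69 (3 genes) and −0.72 (4 genes). At 1.5-fold the genes lower at 48 h were 1 of 9 C/D hosts, about the share of all genes (background 10%), 3 of 7 H/ACA hosts and 3 of 4 scaRNA hosts. SNHG21, among these 3 scaRNA hosts, passed the FPKM filter at 48 h through the DMSO library alone. It was not tested at 24 h. SNHG22, the scaRNA host that was higher at 48 h, passed the filter there through the melatonin library alone. Within the H/ACA class the genes went different ways, since SNHG8 was above 0 at both times while SNHG3 and SNHG4 were below it. With time in DMSO the medians of the classes were 0.71, 0.75 and 0.41, and with time in melatonin 0.55, 0.14 and 0.21, in the same order. The classes were not tested against each other.

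Several host genes overlap protein-coding genes, and the strand of the reads is not stated in the sources used here, so reads of overlapping genes cannot be told apart with certainty. Of the 21 genes, 4 overlapped a coding gene on the same strand, and 3 of these (SNHG3, SNHG4 and SNHG20) are among the genes lower with melatonin at both times. A coding gene overlapped on the opposite strand in 11 of the 21, SNHG10 and SNHG4 among them. GLRX5 overlapped SNHG10 by 1370 bp and had 2291, 2701, 2058 and 2349 reads. SIL1 overlapped SNHG4 by 9143 bp and had 1258, 1568, 971 and 1391 reads. The log2 fold changes with melatonin were 0.09 and 0.17 for GLRX5, and 0.16 and 0.47 for SIL1. RCC1, the nuclear exchange factor for Ran whose span covers SNHG3, had 34.7, 36.2, 31.0 and 29.9 FPKM, and its log2 fold changes with melatonin were 0.06 and −0.05. SEC14L1, over SNHG20, had 11.3, 10.9, 14.3 and 10.6 FPKM (−0.04 and −0.40). The MATR3 entry over SNHG4 was low, with 0.729, 0.326, 1.05 and 0.432 FPKM from 85, 42, 146 and 61 reads. Both of its melatonin libraries lay below both DMSO libraries, as those of SNHG4 did. Its log2 fold changes were −0.38 and −0.52, made smaller by the 1 added to such low FPKM. At 24 h it did not reach 1 FPKM in either library. Without the 4 genes that overlap on the same strand the melatonin median at 48 h was −0.15, with 1 of 17 genes past 2-fold (SNHG25). The medians over time were then 0.71 with DMSO and 0.49 with melatonin. Without the genes that overlap a coding gene on either strand 8 were left, and none of SNHG3, SNHG4, SNHG10 and SNHG20 was among them. For these 8 genes the melatonin median at 48 h was −0.30, and the 1 gene past 2-fold was SNHG25, from 15 and 4 reads. Medians over time were 0.76 with DMSO and 0.59 with melatonin (7 genes).

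On the opposite strand 5 of the 21 genes had a coding gene starting within 1 kb. SNHG1 and SLC3A2, the heavy chain of amino acid transporters, start 188 bp apart. SLC3A2 had 91.0, 105.8, 151.3 and 69.0 FPKM, a melatonin log2 fold change of −1.12 at 48 h, where that of SNHG1 was −0.28. For ZNFX1 beside ZFAS1 the log2 fold changes with melatonin were −0.42 and −0.65, where ZFAS1 had 0.09 and −0.15. TRAF7 beside SNHG19 (−0.20 at 48 h), ACAA2 beside SNHG22 (−0.13) and ZBTB37 beside GAS5 (0.20) stayed within 1.5-fold at 48 h, while SNHG19 itself had −0.99.

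The snoRNAs themselves had few reads in these libraries of polyadenylated RNA. All snoRNA and scaRNA genes of the tables together had 1279, 1337, 1585 and 1418 reads. None of the 11 snoRNAs of GAS5 was matched in the tables, and the listed snoRNAs of SNHG1, SNHG5, SNHG7, SNHG8 and SNHG19 were at 0 reads in every library. The highest count was that of SNORD104 within SNHG25, with 8, 14, 112 and 17 reads, where DMSO 48 h alone was high, as it was for the 15 reads of SNHG25. The 4 SNORA71 genes and a further entry within SNHG17 summed to 107, 85, 60 and 73 reads. These counts show fragments mapped to a snoRNA interval and not the amount of mature snoRNA.

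The bases around the RefSeq start of several host genes are printed to show where the pyrimidine run named above was found and where it was not. A run was counted where a C followed by at least 4 further C or T began within 5 bases before or after the RefSeq start. This was a letter search on the gene strand only. RefSeq promoters were found for 22 of the 26 genes, and 10 of these had such a run (45.5%), against 21.1% of 35116 promoters and 69.4% of 85 ribosomal protein promoters. Of the 6 genes past 2-fold with time in DMSO, 5 had the run, and of the 4 lower with melatonin at both times 1 had it, which is SNHG4. In SNHG8, counted among the 5, the run began 5 bases before the RefSeq start. Only the last base of that run lies in the RefSeq transcript. The windows run from 20 bases before the start to 30 bases from it (RefSeq, GRCh38.p14), with the run in capitals where there is one.
SNHG5 (chr6:85678704-85678753, minus strand): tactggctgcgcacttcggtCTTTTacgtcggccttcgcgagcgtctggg
SNHG7 (chr9:136728155-136728204, minus strand): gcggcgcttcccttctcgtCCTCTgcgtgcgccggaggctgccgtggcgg
SNHG8 (chr4:118278742-118278791, plus strand): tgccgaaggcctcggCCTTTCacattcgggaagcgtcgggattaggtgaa
SNHG19 (chr16:2155329-2155378, minus strand): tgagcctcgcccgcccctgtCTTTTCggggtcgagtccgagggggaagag
ZFAS1 (chr20:49278622-49278671, plus strand): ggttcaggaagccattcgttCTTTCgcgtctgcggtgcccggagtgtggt
SNHG4 (chr5:139274081-139274130, plus strand): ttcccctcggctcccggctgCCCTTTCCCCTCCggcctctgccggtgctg
SNHG3 (chr1:28505923-28505972, plus strand): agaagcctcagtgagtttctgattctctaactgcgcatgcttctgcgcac
SNHG10 (chr14:95534843-95534892, minus strand): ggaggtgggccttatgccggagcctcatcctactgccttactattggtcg
SNHG20 (chr17:77088623-77088672, plus strand): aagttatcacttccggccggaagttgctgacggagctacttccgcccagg
The RefSeq starts of ZFAS1, SNHG12 and SNHG20 lie 464, 1110 and 1927 bases inside the gene spans of the tables. SNHG12, whose window is not shown, is 1 of the 5 genes past 2-fold with time that had the run. The start of GAS5, which had no run, lies 163 bases before its span. Which start the cells used was not measured.

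Over time the medians of the other gene lists lay closer to 0 than that of the hosts. With melatonin they did not at 24 h, and the differences between lists were not tested. Cytoplasmic ribosomal protein genes, of which 82 of 86 were tested, had a median log2 fold change over time of 0.24 in DMSO and 0.21 in melatonin, with 72 and 75 genes above 0 and none past 2-fold. RPS26 (22.6, 33.3, 41.9 and 33.8 FPKM) and RPL5 (202.8, 192.5, 358.2 and 316.1 FPKM) were the highest in DMSO, at 0.86 and 0.82. With melatonin their medians were 0.04 and −0.02, and no ribosomal protein gene passed 2-fold. RPL21 had the lowest value at 48 h, −0.75.

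Protein-coding snoRNA hosts without the ribosomal protein genes numbered 131. Over time their medians were −0.01 in DMSO (116 tested) and −0.10 in melatonin. In DMSO 2 were at least 2-fold higher (background 3.5%) and 1 was lower (background 4.24%). C6orf48, a host that newer annotation lists as SNHG32, was 1 of the 2 that were higher, with 62.4, 77.7, 162.7 and 174.8 FPKM (1.37 in DMSO and 1.16 in melatonin). KIAA0907 was the other, with 7.40, 4.91, 16.0 and 9.11 FPKM (1.02 in DMSO). POLA1 was the lower one, with 6.52, 6.43, 2.39 and 3.54 FPKM (−1.15 in DMSO). With melatonin against DMSO the medians of these hosts were 0.00 (−0.0029) at 24 h and −0.02 at 48 h. MAGED4B alone passed 2-fold there, upward at 24 h (1.09, background 1.42%) and downward at 48 h (−1.15, background 3.32%). It had 0.551, 2.31, 1.83 and 0.273 FPKM from 50, 232, 199 and 30 reads.

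The proteins that build snoRNPs had medians of −0.17 and −0.25 over time and of −0.02 and −0.10 with melatonin. None of the 18 passed 2-fold in any comparison. Over time 2 were at least 1.5-fold lower in each treatment (background 12.6% in DMSO and 6.05% in melatonin). RUVBL2, an ATPase of snoRNP assembly, had 32.8, 33.3, 18.8 and 19.5 FPKM, and its log2 fold changes over time were −0.77 and −0.74. TGS1, which modifies the cap of snoRNAs that have their own promoter, had 6.21, 7.93, 5.09 and 4.35 FPKM. Of the H/ACA proteins NHP2 had 34.1, 26.8, 22.3 and 21.3 FPKM, and GAR1 had 11.2, 9.54, 15.8 and 11.2, so that the 2 differed in which library was highest.

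Of 20 nonsense-mediated decay factors none passed 2-fold in any comparison, and their medians were 0.14 and −0.10 over time and 0.04 and −0.12 with melatonin. NBAS had the largest time difference in DMSO (10.5, 11.7, 6.19 and 8.62 FPKM; −0.68). GSPT1, a translation release factor that binds UPF1, had the largest difference with melatonin at 48 h (46.4, 42.0, 51.6 and 33.8 FPKM; −0.59). Of 11 protein-coding transcripts known as decay targets, 3 were at least 2-fold higher at 48 h in DMSO (background 3.5%). They were ATF4 (103.8, 167.2, 240.5 and 179.0 FPKM), GADD45A (17.4, 16.9, 40.4 and 22.1 FPKM) and GADD45B (1.07, 1.31, 3.65 and 2.36 FPKM). In melatonin none of the 11 passed 2-fold over time (background 2.45% higher and 1.71% lower). DMSO 48 h was the highest library for each of the 3. The medians of the 11 were 0.24 and 0.06 over time and 0.04 and −0.25 with melatonin. Non-coding genes other than the hosts had medians over time of 0.16 in DMSO and 0.20 in melatonin, and with melatonin of −0.18 and −0.12.

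**Figure D4:**
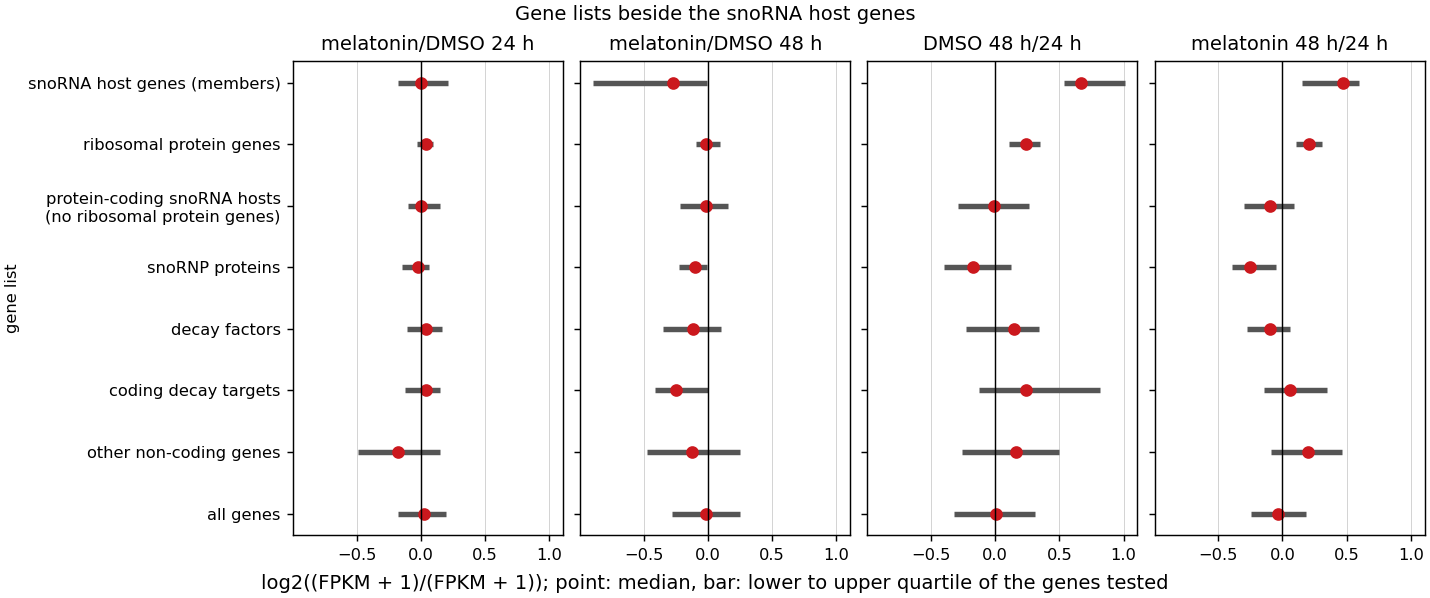
Median (red point) and lower to upper quartile (grey bar) of the log2 fold change of FPKM + 1 over the genes tested in each list, in a panel for each of the 4 comparisons. The host genes have the highest median in both time panels (0.67 and 0.47) and the lowest in the panel of melatonin against DMSO at 48 h (−0.28), where that of the coding decay targets is −0.25.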

How the data were processed

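HepG2 cells were represented by 4 libraries of polyadenylated RNA, 1 per condition, sequenced paired end. The authors' methods name MapSplice 2.0.1.6, mapping to hg38, and Cufflinks, while the submitters' processing notes name Bowtie2 2.0.6, TopHat2 2.0.9, Cufflinks 2.1.1 and Cuffdiff 2.1.1, and which of these made the values is not settled here. The authors deposited FPKM per Ensembl gene with the gene length in bp, and no read counts. Multiplied by gene length, 100% of the deposited FPKM values above 0 corresponded to whole reads (tolerance 0.01 read), which gave the reads per gene. The library sizes that the FPKM imply were below the reads on genes in every library. They were 1.84e+07 against 21616676 in DMSO 24 h and 2.22e+07 against 22820651 in melatonin 48 h.

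Host genes were selected by name. Fold changes were log2((FPKM + 1)/(FPKM + 1)) among genes that reached 1 FPKM in any of the libraries compared, with thresholds of 2-fold and 1.5-fold, and the same rule over all genes gave the background percentages. Read ratios used the library sizes implied by the FPKM, with 95% exact binomial (Clopper-Pearson) intervals, levels had 95% exact Poisson intervals, and the floor was 3 reads. These cover counting error only. With 1 library per condition no single comparison was tested. Added after the data were seen, log2(FPKM + 1) of genes that reached 1 FPKM in any library was fitted with treatment and time as additive terms in limma 3.58.1 (R 4.3.3, mean-variance trend, Benjamini-Hochberg adjustment over all genes), which leaves 1 residual degree of freedom and assumes that the melatonin effect is the same at both times. A count test on the recovered reads was not run.

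Genes were named by a fixed rule: each host gene with an FPKM of at least 1 in any library with its 4 values, others by count and name, and in other lists at most 4 genes, those past 2-fold first and otherwise with large changes. The genes, lists and thresholds were chosen with earlier results of these data known, and the snoRNA classes, the printed sequences and the start window after the values were seen. snoRNAs were assigned by RefSeq position and, where GENCODE 44 gave it, by strand. Some hosted sequence is not reported here. Of the host genes, 26 of 26 were found in GENCODE 44 by gene ID. The letters of 10 of 10 RefSeq promoters compared were identical to hg38.

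Alternatives were a pseudocount of 0.1, no FPKM filter, a minimum FPKM of 5, at least 50 reads, the 1.5-fold threshold, TPM, centring on the median, other library sizes and, added after the data were seen, leaving out genes that overlap a coding gene on the same strand or on either strand. The scripts were tested on simulated data. Python 3.11.15, numpy 2.4.6, pandas 2.3.3, scipy 1.17.1 and matplotlib 3.10.9 were used.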

Additional observations from a re-analysis of the deposited data

Results flagged for a closer look

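SNHG5 and SNHG7 lay on opposite sides of 0 at the 2 times. The log2 fold change of melatonin against DMSO was 0.59 at 24 h and −0.10 at 48 h for SNHG5, and 0.67 and −0.14 for SNHG7, with counting intervals of the read ratio above 1 at 24 h and below 1 at 48 h. On the scale of log2 read ratios the 48 h value minus the 24 h value was −0.71 for SNHG5 (95% counting interval −0.86 to −0.57) and −0.89 for SNHG7 (−1.06 to −0.72). With 1 culture per condition the difference between times was not tested against the spread of cultures.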

How the results depend on the processing

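No paired analysis was possible because replicate numbers do not pair libraries here, each condition having 1 library, so none could be left out. In the additive limma fit, which takes the 2 times as matched for treatment, the number of host genes called was 0 for treatment and 0 for time, with 6 and 12 at an unadjusted p under 0.05. The number of host genes past the threshold depended on the setting. With a pseudocount of 0.1 it was 1 at 24 h and 7 at 48 h for melatonin against DMSO, all lower (0 and 3 as reported). For 48 h against 24 h in DMSO it was 10, 9 of them higher (6 as reported). Over all genes that pseudocount gave more calls too. With melatonin 833 of 13582 were 2-fold lower at 24 h and 916 of 13805 at 48 h. Over time in DMSO 984 of 13854 were higher and 1095 lower. At 1.5-fold it was 6, 8, 14 and 6 in the order melatonin 24 h, melatonin 48 h, time in DMSO and time in melatonin. With TPM it was 7 for melatonin at 48 h, all lower, where 1408 of 18540 genes were lower on that scale. It was 17 for time in DMSO (background 16.4%) and 5 for time in melatonin (background 8.58%). The medians over time were then 1.19 and 0.72, as TPM moved the median of all genes by up to 0.46. Without hosts that overlap a coding gene on the same strand it was 1 for melatonin at 48 h (background 3.32%), SNHG25. Without those overlapping on either strand, which leaves 8, it was again SNHG25 alone for melatonin at 48 h, and 3 for time in DMSO (background 3.5%). At an FPKM of 1 the genes under 50 reads rest on few reads, so that 17 of the 26 genes had at least 50 reads in every library. Over 81 values of single genes and 5 scalings or pseudocounts, 389 of 405 recomputed values kept their sign and 57 moved outside their counting interval.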

Other observations

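By gene ID, GENCODE 44 gives SNHG names to 4 further genes that the name rule did not reach. SNHG29 (listed as LRRC75A-AS1) had 48.3, 57.4, 71.5 and 79.2 FPKM (DMSO and melatonin at 24 h, then at 48 h), above most of the host genes described. SNHG32 (C6orf48) is given with the protein-coding hosts. SNHG30 (LINC02001) had 4.85, 3.02, 4.94 and 3.26 FPKM, with both melatonin libraries below both DMSO libraries and log2 fold changes of −0.54 and −0.48. SNHG31 (AC016708.1) stayed under 1 FPKM with 0 to 9 reads.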
